A study of Mus musculus with 4 samples.

Results

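Periostin (Postn) and 9 further matricellular genes, Tnc, Comp, Thbs1, Thbs2, Thbs3, Thbs4, Cilp, Sparc and Cthrc1, were described by cell class and group in nuclei of mouse heart. The 10 genes were chosen by symbol, with earlier results of these data known. All 10 were found among the 44628 genes of the count tables. The data were 4 single-nucleus RNA libraries from BD Rhapsody cartridges, where a cell label marks the nucleus and a unique molecular identifier (UMI) marks each captured RNA. All mice were 8 weeks old and all had received tamoxifen, and whole hearts were taken 2 weeks afterwards. The 2 control libraries came from mice titled MCM cre/+ (genotype label wt), and the 2 others from mice titled PKP2fl/fl MCM cre/+ (genotype label pkp2 cko). They are called control 1, control 2, cKO 1 and cKO 2 here. By the titles both groups carried the Cre allele and only the second the floxed Pkp2 alleles. Hearts of 2 mice, by design 1 male and 1 female, were pooled for a library, so a library is the replicate (n = 2 per group) and a nucleus is not. The sources used here do not name the promoter that drives the Cre.

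The labels had limits that bear on every comparison between groups. In cardiomyocyte nuclei Pkp2 stood at 560 (control 1), 540 (control 2), 627 (cKO 1) and 594 CPM (cKO 2), where CPM are UMI counts scaled to a common library size, so it was not lower in the libraries labelled knockout. The sources used here do not name the deleted part of the gene, so this level does not check the deletion. Esr1, whose ligand-binding domain is part of tamoxifen-inducible Cre proteins, stood at 74.9 and 62.2 CPM in control 1 and 2 but at 3659 and 3335 CPM in cKO 1 and 2, so a difference in the Cre transgene and the floxed Pkp2 cannot be told apart. Xist, transcribed in female cells, gave between 5 and 12 UMIs per library in the nuclei kept, although each pool should hold a female. No cell label was shared between any pair of libraries. The sort used a nuclear pore antibody, and the cell type tag of every sample reads cardiomyocyte, but all libraries held other classes too, as described next. For these reasons the second group is called cKO-labelled in what follows.

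Matricellular proteins are secreted into the extracellular matrix, where they bind collagens, integrins and growth factors rather than forming the main scaffold. In the adult heart they are mostly known as products of injured or overloaded tissue, and periostin is widely used as a marker of activated cardiac fibroblasts. Several of them act on collagen maturation or on the release of latent TGF-beta.

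Promoter windows were taken from RefSeq (GRCm38.p6), from 250 bases before to 50 bases after a transcription start. Windows were present for 7 of the 10 genes; Comp, Thbs1 and Cthrc1 had none. The 4 windows that follow are shown because they put the gene with the largest fold change in fibroblasts (Postn) and 2 others that rose (Tnc and Thbs4) beside the only member that did not (Thbs2). For Postn and Tnc, which have more than 1 window, the window nearest the annotated gene start is given. Each is written 5′ to 3′ on the gene's own strand. Capitals mark matches, on either strand, to the TATA box letters TATAAA and to the TEAD letters GGAATG. The AP-1 letters TGANTCA and the SMAD palindrome GTCTAGAC were searched in the same way and had no match in these 4 windows.
Postn (chr3:54360857-54361156, plus strand): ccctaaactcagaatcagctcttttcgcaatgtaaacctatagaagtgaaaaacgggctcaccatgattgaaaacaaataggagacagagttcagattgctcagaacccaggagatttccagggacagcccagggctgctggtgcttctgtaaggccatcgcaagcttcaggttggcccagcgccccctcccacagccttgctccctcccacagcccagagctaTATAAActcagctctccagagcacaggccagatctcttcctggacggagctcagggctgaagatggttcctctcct
Tnc (chr4:64046966-64047265, minus strand): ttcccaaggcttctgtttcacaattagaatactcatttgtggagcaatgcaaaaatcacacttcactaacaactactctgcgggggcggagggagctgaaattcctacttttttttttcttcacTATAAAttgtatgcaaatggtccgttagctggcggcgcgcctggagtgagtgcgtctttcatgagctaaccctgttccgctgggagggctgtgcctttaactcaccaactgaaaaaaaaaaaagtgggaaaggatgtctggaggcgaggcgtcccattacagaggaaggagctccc
Thbs4 (chr13:92794769-92795068, minus strand): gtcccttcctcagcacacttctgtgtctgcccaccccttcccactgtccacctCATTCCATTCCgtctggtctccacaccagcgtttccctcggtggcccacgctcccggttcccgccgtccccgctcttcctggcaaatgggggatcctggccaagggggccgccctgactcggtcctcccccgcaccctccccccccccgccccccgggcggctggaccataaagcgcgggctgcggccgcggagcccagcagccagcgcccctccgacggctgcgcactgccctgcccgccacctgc
Thbs2 (chr17:14694213-14694512, minus strand): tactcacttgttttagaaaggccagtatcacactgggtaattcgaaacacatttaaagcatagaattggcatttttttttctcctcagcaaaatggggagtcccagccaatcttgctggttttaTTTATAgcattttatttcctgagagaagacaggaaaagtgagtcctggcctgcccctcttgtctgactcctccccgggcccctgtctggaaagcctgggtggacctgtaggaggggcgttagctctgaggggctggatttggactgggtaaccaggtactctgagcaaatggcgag
The Postn window had TATA letters 26 bases before the start. The TATA letters of Tnc and Thbs2 both began 126 bases before the start. Thbs4 had no TATA match but 2 TEAD matches, which began 197 and 192 bases before the start and overlap by 1 base. Its window was the richest in G and C of the 4 at 72.0%, against 53.0% for Postn, 47.3% for Tnc and 48.3% for Thbs2. Among all 32851 windows of this length, 13.6% held the TATA letters, 14.7% the TEAD letters, 7.81% the AP-1 letters and 0.213% the SMAD palindrome. The windows of Cilp, Sparc and Thbs3 held none of these letters. None of these 4 letter strings was common to the windows of the members that rose.

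After filtering there were 446 and 1166 fibroblast-like nuclei in control 1 and 2 and 623 and 1362 in cKO 1 and 2, with between 1076.5 and 2074 UMIs in the median nucleus of a library. Class names mean nuclei like that type by marker genes. The 15 fibroblast markers summed to 16685 and 15509 CPM in control and to 21915 and 19335 CPM in cKO-labelled fibroblasts, and none was at 0. In cardiomyocyte nuclei the same markers summed to between 1727 and 1827 CPM. Markers of other classes were also present in fibroblasts: the 15 cardiomyocyte markers summed to 9822 and 7443 CPM in the control and to 8089 and 5919 CPM in the cKO-labelled libraries, against 65745 to 69165 CPM in cardiomyocyte nuclei themselves. Those ranges overlapped between groups. Lymphatic endothelial markers were higher in both cKO-labelled libraries (249 and 213 CPM against 161 and 114 CPM) and Schwann markers lower (609 and 723 CPM against 985 and 930 CPM). Adipocyte markers (1409 and 1690 CPM against 1698 and 2347 CPM) and endothelial markers (1851 and 1860 CPM against 1957 and 2243 CPM) were lower by narrow margins. The part of these 4 lists in the fibroblast results was not tested. A further cluster with fibroblast and endothelial markers stayed unnamed and held 1.64% and 0.880% of the control and 0.851% and 0.207% of the cKO-labelled nuclei.

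In fibroblasts, 9 of the 10 matricellular genes rose in the cKO-labelled libraries and none fell. The background for that count is 2.2% of the 11883 genes tested higher, and 3.59% changed in either direction. The members were chosen with earlier results of these data known, so the count is not independent support. The median log2 fold change of the 10 was 2.85, against 0.008 over all genes tested. For the same 9 members both cKO-labelled libraries stood above both controls, a pattern found in 22.5% of all genes tested. DESeq2 called 8, all higher. Different clusters held most fibroblasts in each group: a cluster led by Col6a6 and Scara5 held 362 and 1002 nuclei of the controls, and a cluster led by Cilp and Nox4 held 577 and 1126 nuclei of the cKO-labelled libraries. Without cKO 1 the count was 4, with Thbs3, Cilp, Tnc, Sparc and Cthrc1 no longer past the threshold, and all 10 fold changes kept their sign. Less RNA per cell and fewer cells of a state cannot be told apart in summed counts.

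**Figure D1:**
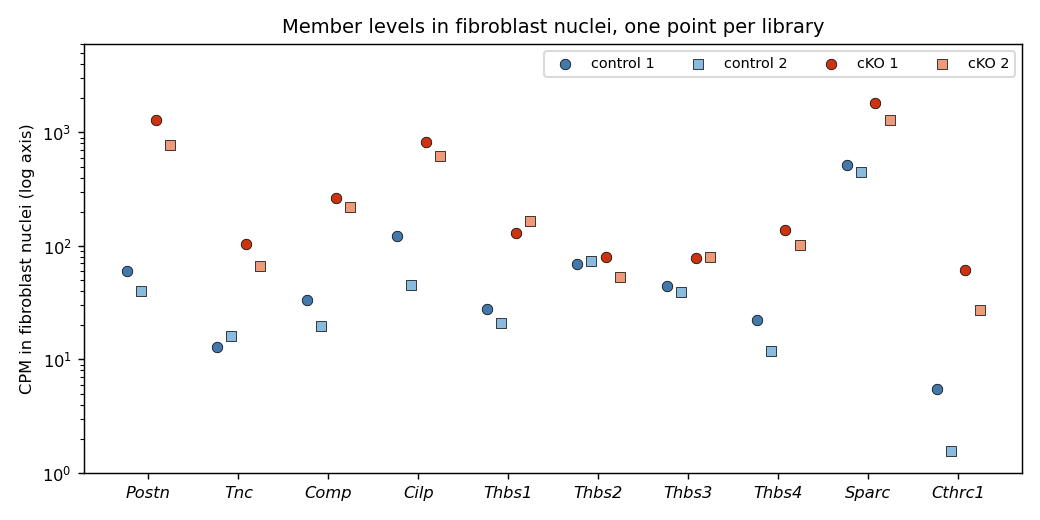
Level of each gene in fibroblast nuclei (CPM on a log axis), with 1 point per library, circles for replicate 1 and squares for replicate 2, controls in blue and cKO-labelled libraries in red. The red points lie above the blue ones for every gene except Thbs2.

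Postn encodes periostin, which binds integrins and helps to assemble and crosslink collagen. The gene lies on chromosome 3 at 54361109 to 54391037, plus strand (GRCm38). Its level in fibroblasts was 60.6 CPM in control 1 and 40.0 CPM in control 2, against 1273 CPM in cKO 1 and 774 CPM in cKO 2. Both cKO-labelled libraries were high and both controls low, with no overlap. The log2 fold change was 4.42 (SE 0.33, adjusted p = 0.000122, n = 2 per group), a fold of 21.4. The counts behind it were 33 and 77 UMIs in the controls and 1453 and 2483 UMIs in the cKO-labelled libraries.

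Tnc encodes tenascin C, a large matrix glycoprotein that is low in most adult tissue and appears at sites of injury. It lies on chromosome 4 at 63959785 to 64047015, minus strand. Its level was 12.9 and 16.1 CPM in the controls and 103 and 66.1 CPM in the cKO-labelled libraries, without overlap. The log2 fold change was 2.44 (SE 0.33, adjusted p = 0.00133). The control value rests on few nuclei: of the 31 Tnc UMIs in control 2, 21 came from a single nucleus. An antisense transcript, 8030451A03Rik, covers 67162 bases of Tnc, and the sources used here do not say how strand was handled.

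The thrombospondins are multimeric matrix proteins that bind calcium. Thbs1 and Thbs2 encode the members that form trimers and bind CD36 and CD47. Thbs3, Thbs4 and Comp (thrombospondin 5) encode those that form pentamers. Thbs1, an activator of latent TGF-beta (chromosome 2, 118111876 to 118127133, plus strand), stood at 27.6 and 20.8 CPM in the controls and 131 and 166 CPM in the cKO-labelled libraries. The groups did not overlap (log2 fold change 2.71, SE 0.27, adjusted p = 0.000217). Thbs2, whose product limits matrix metalloproteinases (chromosome 17, 14665500 to 14694235, minus strand), stood at 69.8 and 73.8 CPM in the controls and 79.7 and 53.0 CPM in the cKO-labelled libraries. Here the groups overlapped, and the log2 fold change of -0.16 (SE 0.26) did not pass (adjusted p = 0.881). Thbs1 and Thbs2 thus gave different results in the same nuclei, although the difference between the genes was not itself tested.

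Among the pentamer-forming members, Comp, first known from cartilage (chromosome 8, 70373558 to 70382066, plus strand), stood at 33.1 and 19.7 CPM in the controls and 263 and 219 CPM in the cKO-labelled libraries. It rose (log2 fold change 3.32, SE 0.29, adjusted p = 0.000122). Thbs4, known for a protective role in the stressed heart (chromosome 13, 92751590 to 92794818, minus strand), stood at 22.1 and 12.0 CPM and at 139 and 102 CPM. It rose (log2 fold change 3.00, SE 0.33, adjusted p = 0.000353). For both genes the libraries separated by group with a wide gap. Thbs3 (chromosome 3, 89215180 to 89226837, plus strand) stood at 44.1 and 39.0 CPM in the controls and 78.8 and 79.2 CPM in the cKO-labelled libraries. Its log2 fold change of 0.95 (SE 0.24) passed narrowly (adjusted p = 0.0498) and did not pass by DESeq2 (adjusted p = 0.295), with RLE in place of TMM scaling (adjusted p = 0.0525), or without any single library. Thbs3 lies wholly within the antisense gene Mtx1 in the annotation, so reads of the 2 genes may not have been told apart.

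Cilp, Sparc and Cthrc1 encode matrix proteins of other families. Cilp, cartilage intermediate layer protein, can antagonise TGF-beta (chromosome 9, 65265180 to 65280605, plus strand). Its level was 121 and 45.2 CPM in the controls and 818 and 617 CPM in the cKO-labelled libraries (log2 fold change 3.25, SE 0.38, adjusted p = 0.000533). The fold change of Cilp was 3.98 without control 1 and 2.57 without control 2. Sparc binds collagen and takes part in its deposition (chromosome 11, 55394500 to 55423183, minus strand). It was already well detected in controls, at 511 and 446 CPM, and reached 1800.4 and 1281 CPM in the cKO-labelled libraries (log2 fold change 1.69, SE 0.25, adjusted p = 0.00214). For Cilp and Sparc the lowest cKO-labelled library exceeded the highest control. Cthrc1, a collagen triple helix repeat protein found in activated fibroblasts (chromosome 15, 39076932 to 39087121, plus strand), gave only 3 UMIs in each control library, or 5.51 and 1.56 CPM. It gave 70 and 88 UMIs, or 61.3 and 27.4 CPM, in the cKO-labelled libraries. The ratio of pooled counts was 15.4 (exact 95% counting interval 6.91 to 42.5), and edgeR's test gave an adjusted p of 0.00321. Its log2 fold change of 4.03 was 4.69 without control 1, 2.91 without control 2 and 3.41 without cKO 1, where it no longer passed (adjusted p = 0.0817).

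The share of fibroblast nuclei positive for a gene depends on depth, so each nucleus was thinned to 1000 UMIs and shallower nuclei were left out. This left 266 and 1087 control nuclei and 503 and 1314 cKO-labelled nuclei, after leaving out 180, 79, 120 and 48. At that depth 5.64% of control 1 (exact 95% interval 3.19% to 9.13%) and 2.12% of control 2 (1.35% to 3.16%) had a Postn UMI. The shares were 41.7% in cKO 1 (37.4% to 46.2%) and 27.9% in cKO 2 (25.4% to 30.4%). These intervals cover counting error only. The difference between group means was 30.9 percentage points, with no overlap; the two-sided exact permutation p was 0.333, the smallest that 2 against 2 libraries can give. Without thinning the shares were 4.26% and 4.03% in the controls and 46.9% and 38.4% in the cKO-labelled libraries. Cardiomyocyte nuclei, deeper before thinning at medians from 3246 to 5525 UMIs, had a Postn UMI in 1.46% and 0.896% of controls and in 0.837% and 0.620% of the cKO-labelled libraries. Cardiomyocytes should lack the gene, so that share is read as background. Endothelial nuclei stood at 5.69% and 1.85% in the controls, a range that overlapped the control fibroblasts. The UMIs per positive nucleus differed too: 1.20 and 1.44 in the controls against 2.78 and 2.24 in the cKO-labelled libraries.

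**Figure D2:**
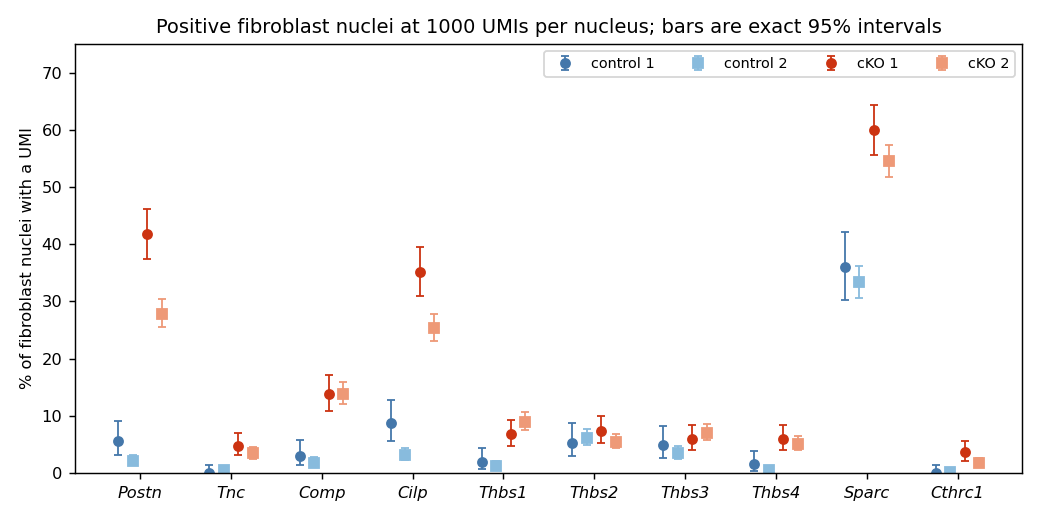
Share of fibroblast nuclei with at least 1 UMI of each gene after thinning to 1000 UMIs, with 1 point per library and exact 95% binomial intervals (counting error only). Postn went from 5.64% and 2.12% in the controls to 41.7% and 27.9%, while Thbs2 stayed between 5.26% and 7.36%.

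Positive shares of the other members followed their levels. Sparc was seen in 36.1% and 33.3% of control and 60.04% and 54.6% of cKO-labelled nuclei. Cilp was seen in 8.65% and 3.13% of control and 35.2% and 25.4% of cKO-labelled nuclei. Comp went from 3.01% and 1.75% to 13.7% and 13.9%. As for Postn, the groups did not overlap for these 3 genes, nor for Thbs1, Thbs3, Thbs4, Tnc and Cthrc1. How many of all genes separate in this way by positive share was not computed. Thbs1 was found in 1.88% and 1.20% of control and 6.76% and 8.90% of cKO-labelled nuclei, and Thbs4 in 1.504% and 0.460% against 5.96% and 5.10%. Tnc was found in 0 of 266 nuclei of control 1, which allows a share of up to 1.13% at that depth (3 of 446 nuclei, or 0.673%, carried it before thinning), in 0.460% of control 2, and in 4.77% and 3.42% of the cKO-labelled libraries. Thbs3 was seen in 4.89% and 3.40% against 5.96% and 7.002%, and Cthrc1 in 0 of 266 and 0.184% against 3.58% and 1.75%. Thbs2 overlapped between groups at 5.26% and 6.16% against 7.36% and 5.48%. Most members were thus seen in a minority of nuclei at this depth, even in the cKO-labelled libraries.

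Nuclei also held more members at once. At least 2 of the 10 genes were detected in 11.7% and 7.18% of control nuclei and in 56.3% and 42.0% of cKO-labelled nuclei at 1000 UMIs. At least 4 were detected in 0.376% and 0.368% against 12.9% and 8.90%. None was detected in 48.9% and 56.6% of control nuclei and in 16.5% and 22.1% of cKO-labelled nuclei. Within the cKO-labelled libraries, nuclei with a Postn UMI carried other members at different rates from nuclei without one. Thbs4 was seen in 11.4% of 210 Postn-positive and 2.05% of 293 Postn-negative nuclei of cKO 1, and in 14.2% of 366 and 1.58% of 948 nuclei of cKO 2. Cthrc1 was seen in 6.19% and 1.71% in cKO 1 and in 4.64% and 0.633% in cKO 2. For Cilp the shares were 47.6% and 26.3% in cKO 1 and 45.9% and 17.5% in cKO 2. Thbs2 showed no such split, at 5.24% and 8.87% in cKO 1 and 5.74% and 5.38% in cKO 2. Neither did Thbs3, which rose, at 5.24% and 6.48% in cKO 1 and 7.92% and 6.65% in cKO 2. For Thbs1 the shares were 10.5% and 4.10% in cKO 1 but 10.4% and 8.33% in cKO 2. Nuclei of a library share their source, so these shares are given without a test.

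The clustering was repeated with the 10 members left out of the genes used, so that their levels did not make the clusters. A cluster led by Col6a6 and Scara5, a marker of resting fibroblasts, had 420 and 1095 nuclei in the controls and 167 and 314 in the cKO-labelled libraries. A cluster led by Cilp and Nox4 had 23 and 68 nuclei in the controls and 450 and 940 in the cKO-labelled libraries. Cilp leads it by level although it was not used to make it. CPM by cluster were not scaled with TMM. In the Scara5 cluster Postn stood at 36.9 and 23.5 CPM in the controls and at 145 and 73.8 CPM in the cKO-labelled libraries. In the Cilp and Nox4 cluster it stood at 308 and 205 CPM in the controls (14 and 33 UMIs) and at 1589 and 952 CPM in the cKO-labelled libraries. Postn was therefore higher in the cKO-labelled libraries in both clusters.

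The other members were set beside each other in the Cilp and Nox4 cluster, where single nuclei carried much of the control signal. There, Thbs4 stood at 198 and 93.2 CPM in the controls (9 and 15 UMIs) and at 177 and 122 CPM in the cKO-labelled libraries. Tnc stood at 110 and 143 CPM (5 and 23 UMIs) against 114 and 74.96 CPM, and Thbs1 at 132 and 87.0 CPM (6 and 14 UMIs) against 159 and 81.4 CPM. For these 3 genes the groups overlapped within the cluster, and Cthrc1 overlapped as well, at 66.1 and 18.6 CPM (3 UMIs each) against 73.8 and 34.5 CPM. A single nucleus gave all 5 Tnc UMIs of control 1 and 21 of the 23 of control 2, 5 of 9 and 13 of 15 for Thbs4, 2 of 6 and 7 of 14 for Thbs1, and 3 of 3 and 2 of 3 for Cthrc1. The levels were therefore taken again without the nucleus richest in the gene in each library, an alternative chosen after seeing the data. Tnc then stood at 0 and 12.6 CPM in the controls and 106 and 63.97 CPM in the cKO-labelled libraries, and Thbs4 at 92.3 and 12.6 CPM against 159 and 113 CPM. Cthrc1 stood at 0 and 6.30 CPM against 67.3 and 31.3 CPM. The overlap of these 3 genes thus rested on single nuclei, while Thbs1 still overlapped, at 90.99 and 44.1 CPM against 138 and 68.3 CPM. A single nucleus held every Tnc and Cthrc1 UMI of control 1 in the Cilp and Nox4 cluster, so those levels had to become 0. The removal weighs more on the controls, which had far fewer nuclei there, so no separation of the groups is read from it. Comp, at 220 and 99.4 CPM against 307 and 267 CPM, and Sparc, at 1145 and 578 CPM against 2164 and 1488 CPM, did not overlap with all nuclei kept. In the Scara5 cluster Tnc stood at 2.05 and 4.37 CPM in the controls and 60.8 and 16.6 CPM in the cKO-labelled libraries, where 12 of the 13 UMIs of cKO 1 came from a single nucleus. All 6 Cthrc1 UMIs of the control fibroblasts fell in the Cilp and Nox4 cluster. With 23 nuclei in control 1 the control values are imprecise, and no test was run on clusters.

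**Figure D3:**
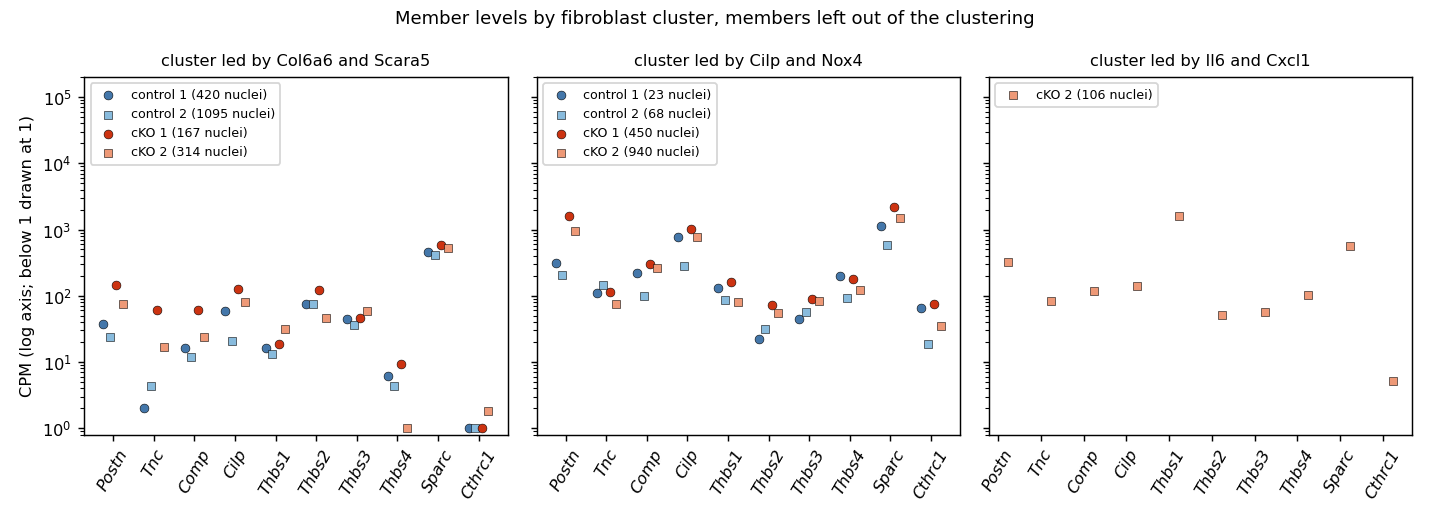
Level of each gene (CPM on a log axis, below 1 drawn at 1) in 3 fibroblast clusters made without the 10 genes, with 1 point per library holding at least 20 nuclei of the cluster. Postn is higher in red than in blue in the first and second panels, while Thbs4, Tnc, Thbs1 and Cthrc1 overlap in the second, where single control nuclei gave 21 of 23 Tnc UMIs and 13 of 15 Thbs4 UMIs in control 2.

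Thbs1 had a separate source in a single library. A fibroblast cluster led by Ptx3, Ereg and Cxcl1, with the cytokine gene Il6 also among its leading genes, held 106 nuclei of cKO 2 but only 1, 1 and 5 of control 1, control 2 and cKO 1, in the clustering made without the 10 genes. It held 311 Thbs1 UMIs of cKO 2, 58.6% of those in its fibroblasts, at 1599 CPM, against 81.4 CPM in the Cilp and Nox4 cluster of the same library. Postn in the Ptx3 cluster stood at 319 CPM, below the 952 CPM of the Cilp and Nox4 cluster. Without the matching cluster of the clustering that used all genes (103 nuclei of cKO 2), an alternative chosen after seeing the data, the log2 fold change of Thbs1 in all fibroblasts was 2.14 (SE 0.33, adjusted p = 0.00138).

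The levels of Postn were then compared over cell classes. Cardiomyocyte nuclei had 21.1 and 7.53 CPM in the controls and 12.8 and 7.89 CPM in the cKO-labelled libraries, and endothelial nuclei 44.3 and 19.5 CPM against 58.6 and 22.5 CPM. Macrophage nuclei had 39.6 and 22.6 CPM against 212 and 86.3 CPM. Mural nuclei, which join pericytes and smooth muscle, had 216 and 105 CPM against 220 and 190 CPM. In the controls the mural level was thus above the fibroblast level of 60.6 and 40.0 CPM in each library, with a Postn UMI in 18.9% and 9.24% of thinned mural nuclei. The cKO-labelled libraries had the reverse order, with fibroblasts highest. In the controls the fibroblast and endothelial ranges overlapped, as did the endothelial and macrophage ranges, while the higher macrophage library lay just under the lower fibroblast library. In the cKO-labelled libraries the mural and macrophage ranges overlapped. Fibroblast markers in mural nuclei summed to 6114 and 5704 CPM in the controls and 6053 and 5245 CPM in the cKO-labelled libraries, and their part in the mural Postn level was not tested. The pericyte-rich cluster led by Mdga2 and Pde8b gave 50 of 56 mural Postn UMIs in control 1 and 94 of 110 in control 2, and it held 186 of 213 and 502 of 593 of the mural nuclei.

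**Figure D4:**
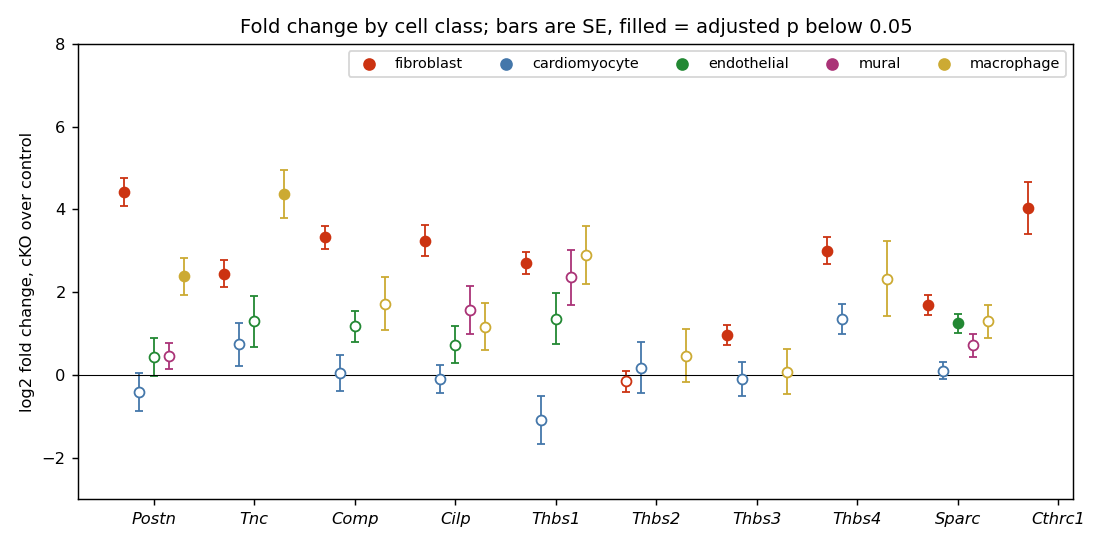
Log2 fold change of each gene (cKO-labelled over control) by cell class, with SE bars; filled points passed an adjusted p of 0.05 and genes that failed the count filter in a class are not drawn. Fibroblasts are filled for 9 genes, macrophages for Postn and Tnc, and endothelial nuclei for Sparc.

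Cardiomyocytes, the class with the most UMIs, showed no member past the threshold among 9 tested, where 2.81% of 15357 genes passed. By edgeR 1 member had an unadjusted p under 0.05, as did 2194 of the 15357 genes, and DESeq2 called 0. That member was Thbs4, at 3.05 and 2.05 CPM in the controls and 6.23 and 6.24 CPM in the cKO-labelled libraries (log2 fold change 1.35, SE 0.35, adjusted p = 0.0988). Its libraries did not overlap, but its call depended on settings: adjusted p ranged from 0.000159 to 0.425, and leaving out control 1 gave 0.0339. Different clusters held most cardiomyocytes in each group too: the cluster led by Esr1 held 625 and 728 nuclei of the cKO-labelled libraries and 160 and 260 of the controls. In all cardiomyocytes the log2 fold change of Postn was -0.42 (SE 0.46, adjusted p = 0.769), with overlapping libraries. Without control 2 the log2 fold change was -1.06, and 21 of the 104 Postn UMIs of control 1 came from a single nucleus.

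Endothelial nuclei showed 1 member past the threshold of 6 tested, where 3.61% of 11729 genes passed in either direction and 0.708% were higher. By edgeR 3 of the 6 had an unadjusted p under 0.05, as did 1764 of the 11729 genes, and DESeq2 called 1. Beside Sparc these were Comp and Thbs1, which did not pass. Comp stood at 14.2 and 10.4 CPM in the controls and 30.6 and 23.0 CPM in the cKO-labelled libraries. Thbs1 stood at 0 and 6.71 CPM against 14.0 and 11.1 CPM. Sparc stood at 317 and 306 CPM in the controls and 814 and 666 CPM in the cKO-labelled libraries (log2 fold change 1.25, SE 0.23, adjusted p = 0.00691). Its groups did not overlap. Without control 2 the adjusted p was 0.06, with at most 20% mitochondrial UMIs it was 0.0675, and with at most 1% it was 0.82 at a log2 fold change of 0.71. The capillary-like cluster led by Car4 went from 430 and 407 CPM to 1020 and 805 CPM. The endocardial cluster led by Nrg1 and Npr3 went from 231 and 210 CPM to 545 and 569 CPM, and the arterial-like cluster led by Sema3g from 308 and 310 CPM to 828 and 541 CPM. Sparc was higher in each endothelial cluster that had at least 20 nuclei in every library. Fibroblast markers in endothelial nuclei summed to 2321 and 2061 CPM (controls) against 2501 and 1879 CPM (cKO-labelled), with overlapping groups. Other lists separated by group: cardiomyocyte markers summed to 25977 and 18661 CPM in the controls and 12629 and 8520 CPM in the cKO-labelled libraries, and the endothelial markers themselves to 10603 and 11804 CPM against 17010 and 17027 CPM. None of the cardiomyocyte markers was at 0, and the part of both lists in the Sparc result was not tested. Of the 80 endothelial Tnc UMIs in cKO 2, 44 lay in a cluster led by Selp that held 177 nuclei of cKO 2 and 4 of cKO 1.

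No member passed in mural nuclei among 4 tested, where 0.118% of 8503 genes did. By edgeR 3 of the 4 had an unadjusted p under 0.05, as did 427 of the 8503 genes, and DESeq2 called 0. Postn was not among those 3 (log2 fold change 0.45, SE 0.31, adjusted p = 0.999). Sparc stood at 652 and 483 CPM in the controls and 1088 and 755 CPM in the cKO-labelled libraries, Cilp at 19.3 and 13.4 CPM against 75.1 and 22.8 CPM, and Thbs1 at 15.4 and 3.83 CPM against 39.0 and 32.2 CPM. Each had higher values in both cKO-labelled libraries, a pattern of 16.9% of genes tested in mural nuclei.

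In the macrophage class, 2 of 9 members tested rose, where 1.51% of 11373 genes passed in either direction and 0.791% were higher. Both calls were lost without a cycling cluster whose class is in doubt, described after the values. Postn was called (log2 fold change 2.38, SE 0.45, adjusted p = 0.0208) from the levels given with the other classes. Tnc stood at 2.83 CPM in each control, from 1 and 3 UMIs, and at 42.8 and 78.1 CPM in the cKO-labelled libraries, from 54 and 133 UMIs. Its ratio of pooled counts was 23.0 (exact 95% counting interval 8.82 to 85.2), with an adjusted p of 0.00241. Both genes were higher in each cKO-labelled library, but few nuclei carried Tnc. A cluster led by Spp1 held 259 and 270 macrophage nuclei of cKO 1 and cKO 2 and 6 and 1 of the controls, most of which lay in the cluster led by Cd163. In cKO 2 the Tnc UMIs came from 18 of 805 nuclei, and 2 nuclei gave 75 and 28 of them.

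Most Tnc UMIs of the macrophage class lay in a cluster led by cell cycle genes such as Top2a and Mki67, which held 70 and 92 nuclei of the cKO-labelled libraries and 31 and 52 of the controls. It gave 36 of 54 Tnc UMIs in cKO 1 and 127 of 133 in cKO 2. The cluster took its class from 8 macrophage markers. Its fibroblast markers summed to 10060 and 6072 CPM in cKO 1 and cKO 2, against 2382 and 1561 CPM in the controls. Its macrophage markers summed to 3447 and 3244 CPM in cKO 1 and cKO 2, below the fibroblast markers, and to 4361 and 7720 CPM in the controls, above them. The class name was thus not borne out for this cluster in the cKO-labelled libraries. Cardiomyocyte markers in the whole macrophage class separated by group too, at 12927 and 10435 CPM in the controls and 6918 and 6449 CPM in the cKO-labelled libraries. In the larger macrophage cluster led by Cd163 the fibroblast markers summed to between 1433 and 3783 CPM. So fibroblast markers moved with Postn and Tnc in the cycling cluster, and the part of both lists in the result was not tested. Without that cluster, an alternative chosen after seeing the data, no member passed in macrophages. Postn then had a log2 fold change of 1.78 (adjusted p = 0.169), and Tnc had too few counts for the filter. The log2 fold change of Postn was 1.61 without cKO 1. Both calls were also lost without cKO 2 (adjusted p = 0.368 for both) and with at most 20% mitochondrial UMIs (0.115 for both), and that of Postn without control 2 (adjusted p = 0.055).

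**Figure D5:**
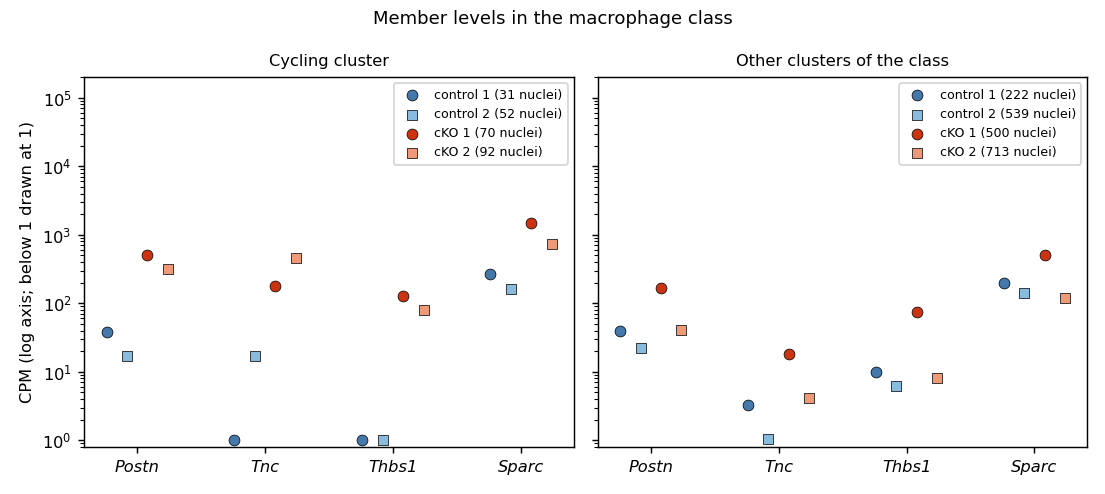
Level of 4 genes (CPM on a log axis, below 1 drawn at 1) in the cycling cluster of the macrophage class and in its other clusters, with 1 point per library. In the cycling cluster Tnc reaches 178 and 455 CPM in the cKO-labelled libraries, while in the other clusters it stays at 18.1 and 4.11 CPM.

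The ratio of Tnc to Postn UMIs was higher in the macrophage class than in fibroblasts in both cKO-labelled libraries. In fibroblasts there were 8.12 (exact 95% counting interval 6.67 to 9.80) and 8.54 (7.39 to 9.83) Tnc UMIs per 100 Postn UMIs in cKO 1 and cKO 2. In macrophages there were 20.1 (exact 95% counting interval 14.8 to 27.1) and 90.5 (71.0 to 115). Endothelial nuclei had 10.2 (4.53 to 20.3) and 94.1 (68.5 to 129), so in cKO 1 their interval overlapped that of fibroblasts. Of the 133 macrophage Tnc UMIs of cKO 2, 103 came from the 2 nuclei named above, and 127 lay in the cycling cluster whose class is in doubt. Mural nuclei had 13.9 (6.68 to 26.3) and 8.45 (4.27 to 15.2), with intervals that overlapped those of fibroblasts in the same library. For Comp there were 20.6 and 28.3 UMIs per 100 Postn UMIs in fibroblasts and 25.7 and 17.0 in macrophages, but 52.3 and 102 in endothelial nuclei.

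Whether the change in fibroblasts differed from that in other classes was tested with a class-by-group term. It was larger in fibroblasts than in cardiomyocytes for 8 of the 10 members, where 3.02% of 16315 genes were larger in fibroblasts. Against endothelial nuclei it was larger for 3 members (Postn, Comp and Cilp), against a background of 3.84%. Against mural nuclei it was larger for 4 (Postn, Comp, Cilp and Sparc), against 0.633%. Against macrophages it was larger for Postn and Cilp alone, against 0.223%. Against macrophages the call of Postn was lost without control 1 (adjusted p = 0.285) and without control 2 (0.582), and so was that of Cilp (0.600 and 0.296). Against mural nuclei that of Cilp was lost without control 2 and without cKO 2. Comp also lost its calls against endothelial and mural nuclei in some alternative fits, and Sparc its call against mural nuclei. So did Thbs3, Thbs4 and Cthrc1 against cardiomyocytes. All of these kept their direction. None was smaller in fibroblasts. Tnc went the other way against macrophages without passing (-1.98, SE 0.88, adjusted p = 0.462). These comparisons share the fibroblast sums, so they are not independent of each other. Without control 2 the total over the 4 comparisons fell from 17 to 9.

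Other genes tied to matricellular proteins were read from the same fibroblast fit. Of 27 other matricellular genes 18 were tested, and 8 rose and none fell. They included Ccn2 (log2 fold change 2.99, from 134 and 88.4 CPM to 1042 and 668 CPM), which encodes connective tissue growth factor, and Ccn1 (2.61). Ccn5 (1.77), the proteoglycan gene Bgn (1.56), Fstl1 (1.48) and Fbln1 (1.48) rose too. Of 18 receptor genes tested, 2 integrin subunits rose and 1 fell. Itga9 (1.04), part of a tenascin C receptor, went from 136 and 160 CPM to 272 and 341 CPM, and Itgb5 (1.00), which pairs with the alpha v subunit that binds periostin, from 136 and 161 CPM to 271 and 325 CPM. Itga8 (-1.67) fell from 40.4 and 67.0 CPM to 7.88 and 23.7 CPM. The other 15 receptor genes did not pass, and the median of the list was 0.30.

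Among 17 matrix partners and proteases tested, 7 rose and none fell. Lox (log2 fold change 3.25), which encodes the collagen crosslinking enzyme that periostin helps to activate, went from 14.7 and 9.35 CPM to 122 and 87.9 CPM. Fn1 (3.04), fibronectin, Col1a1 (1.97), Col3a1 (1.94), Col1a2 (1.41) and Col5a2 (1.38) rose as well. Among genes of the TGF-beta pathway, Ltbp2 (2.77), which encodes a latent TGF-beta binding protein, Skil (1.30), a repressor of SMAD signalling, and the ligand gene Tgfb3 (1.14) rose. Of 9 genes of protein folding in the endoplasmic reticulum, a process in which Thbs4 takes part, only Pdia6 rose (1.23). Lists of fibroblast states gave 8 of 11 activation genes higher, led by Ddah1 (3.68), Col12a1 (3.20) and Piezo2 (2.56). The other 3, named after their values were seen, did not pass. Acta2 (0.43, SE 0.64, adjusted p = 0.863) and Tagln (0.93, SE 0.63, adjusted p = 0.597) are the classic contractile genes of myofibroblasts. Acta2 stood at 1.84 and 7.80 CPM in the controls against 12.3 and 5.92 CPM, and Tagln at 3.68 and 3.64 CPM against 7.88 and 6.55 CPM. At such low levels a missing call says little about these genes. Fap (-1.05, adjusted p = 0.131) stood at 175 and 296 CPM in the controls and 71.8 and 154 CPM in the cKO-labelled libraries. Of 10 resting genes, Hsd11b1 (-3.11), Scara5 (-2.41) and Dpep1 (-1.03) fell and Pi16 (1.41) rose. These lists were chosen with earlier results of the same data known, so their direction is not independent support.

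The genes whose pattern was most like that of Postn were ranked over 20 sums, those of 5 classes in each of 4 libraries, among 13587 genes. The measure was Pearson's correlation of log2 CPM, given as a description because sums of a library share its depth and its mice. Dkk3 came first (0.93), followed by Loxl3 (0.91), Gm56768 (0.90), Col3a1 (0.90), Fn1 (0.90), Ptn (0.90), Gas1 (0.89) and Gpr176 (0.89). Col3a1 and Fn1 encode matrix proteins and Loxl3 a relative of lysyl oxidase. Among the other members, Sparc ranked 35, Comp 36, Thbs1 57 and Cilp 71. Thbs2 ranked 313, Thbs4 356, Tnc 456, Thbs3 564 and Cthrc1 975. No member was among the 8 most alike.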

How the data were processed

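The authors deposited 1 table of UMI counts per library, whole numbers per gene and nucleus without normalization, per the file headers and values. The submitters' processing notes name mm10. The sources used here give no aligner, counter, annotation or treatment of introns and strand. Positions come from GENCODE M21, matched by gene identifier.

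Kept nuclei had at least 300 genes, 500 UMIs and at most 5% mitochondrial UMIs, and the top 0.5% by UMIs were dropped. The mitochondrial limit removed most: between 48.8% and 53.8% of the 5947 to 14238 barcodes per library were over it. Scrublet marked 13.5% of cKO 2 as doublets; in the other libraries its threshold did not work and the top 6% of scores were removed. The nuclei kept numbered 2805 (control 1), 6024 (control 2), 3642 (cKO 1) and 6268 (cKO 2). Nuclei were clustered together (scanpy 1.11.5, Leiden, 2000 variable genes, 30 components, resolution 1, no integration) into 25 clusters, and a cluster was named where at least 3 markers of a class were seen in at least 10% of its nuclei at more than 2 times the mean of the other clusters, unless another class had over 50% as many. The naming rule was settled after the data were seen.

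Counts were summed per library and class, from 257592 to 11003856 UMIs, and tested with edgeR 4.0.16 (quasi-likelihood, TMM, its expression filter, R 4.3.3), with Benjamini-Hochberg adjustment over every gene tested in a class; adjusted p under 0.05 was called. CPM in a class are TMM-scaled, while those of clusters, markers and labels are not. SE are of log2 fold changes, derived from the test. P-values of edgeR rest on the spread between libraries, each a pool of 2 mice. The spread of each gene is drawn toward that of the other genes, so it is not the gene's own alone. DESeq2 1.42.0, RLE scaling, no filter, left-out libraries, the replicate number as a block, other nucleus filters and left-out clusters were the alternatives. Scripts were checked on simulated counts. The members and gene lists were chosen with earlier results of these data known. Of each list up to 6 genes past the threshold are named, by size, and the 8 genes most like Postn. A result of the TGF-beta list is not reported here, and neither is that list's count. Promoter sequences are from RefSeq, and proteins were not used here.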

Additional observations from a re-analysis of the deposited data

Results flagged for a closer look

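The change in fibroblasts differed from that in another class, by edgeR's class-by-group term adjusted over all genes tested, for 17 pairs of member and class. Each value is the log2 fold change in fibroblasts minus that in the other class, and a positive value means that the gene rose more in fibroblasts. Against cardiomyocytes the difference was 4.62 for Postn (SE 0.24), 3.17 for Comp (SE 0.34), 3.42 for Cilp (SE 0.25) and 3.61 for Thbs1 (SE 0.42). It was 3.89 for Cthrc1 (SE 0.81), 1.60 for Thbs4 (SE 0.41), 1.57 for Sparc (SE 0.16) and 1.19 for Thbs3 (SE 0.37), the last at an adjusted p of 0.04998. Thbs2 (-0.21) and Tnc (1.62, adjusted p = 0.0558) were not among them.

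Against endothelial nuclei the difference was 3.96 for Postn (SE 0.33), 2.15 for Comp (SE 0.41) and 2.66 for Cilp (SE 0.35). Mural nuclei gave 3.83 for Postn (SE 0.27), 2.69 for Comp (SE 0.63), 2.03 for Cilp (SE 0.50) and 0.98 for Sparc (SE 0.19). Macrophages gave 2.14 for Postn (SE 0.36, adjusted p = 0.0163) and 2.08 for Cilp (SE 0.40, adjusted p = 0.0381). Fibroblast markers were present in the macrophage and mural nuclei, as given with their levels, and their part in these differences was not tested.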

How the results depend on the processing

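Of the 9 members called in fibroblasts, 113 of 125 recomputed values kept direction and call and 12 fell short of the threshold in the same direction. Without single libraries 4 to 8 members were called in fibroblasts, and 63 to 555 genes in all, against 427. With at most 1% mitochondrial UMIs 126 genes were called. Thbs2, which was not called, ranged from -0.44 to 0.14 without single libraries, changing sign without cKO 2, and was 0.11 with at most 20% mitochondrial UMIs. In cardiomyocytes 1 member was called with no low count filter (837 of 37817 genes in all) or with at least 1000 UMIs per nucleus (445 of 15219). Postn there ranged from -1.06 to 0.44 without single libraries and was 0.056 with no doublet removal, against -0.42. In endothelial nuclei 0 members were called with at most 1% mitochondrial UMIs, where 7 of 1902 genes were. In mural nuclei 1 was called with at most 20% mitochondrial UMIs (21 of 10428 genes in all) or with no doublet removal (37 of 9931). Mural Postn ranged from -0.074 to 0.94 without single libraries. Macrophages gave 6 calls with no low count filter (331 of 28819 genes in all) and 5 with no doublet removal (359 of 12280). They gave 0 with at most 1% mitochondrial UMIs (11 of 3780 genes), with at most 20% (218 of 12098) and without the Mki67 and Top2a cluster (98 of 10790). The 17 class-by-group calls became 9 to 19 without single libraries. The difference in the Postn-positive share was 23.98 to 37.9 percentage points without single libraries and 45.3 when thinned to 2000 UMIs, which left 24 nuclei of control 1. The cause of these shifts was not tested. With at most 1% mitochondrial UMIs no cluster was named cardiomyocyte, so that class has no value there. A fit that leaves 1 library in a group takes that library to vary like the other group.

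With the replicate number as a block, 1865 genes were called in fibroblasts, against 427. The block called 7 members and 1262 of 11373 genes in macrophages, 3 and 2198 of 11729 in endothelial, 2 and 76 of 8503 in mural, and 1 and 3857 of 15357 in cardiomyocyte nuclei. Same-numbered libraries deviated from their group means with a correlation of 0.35 over fibroblast genes. With only 2 numbers, and no label saying that a number marks a shared day or litter, the libraries are taken to share only a number.

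Depth limits the low genes: Cthrc1 rested on 3 UMIs in each control fibroblast library and macrophage Tnc on 1 and 3.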
